A study of Mus musculus with 8 samples.

Results

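The genes of the major histocompatibility complex (MHC) and of antigen presentation were followed in bulk RNA sequencing of haematopoietic stem cells (HSCs) from mouse bone marrow. Members were the genes whose symbol starts with H2-, the mouse name of the complex, without H2- pseudogenes marked -ps, together with B2m, Tap1, Tap2, Tapbp, Tapbpl, Erap1, Cd74, Ciita, Nlrc5, Rfx5, Rfxap and Rfxank. These were 40 of the 19909 genes in the deposited tables. They comprised 2 classical class I chains, 16 non-classical class I rows, 7 genes of the class I machinery, 9 class II rows, 2 genes of the class II machinery, 3 RFX regulators and H2-Ke6, which lies in the region and encodes a hydroxysteroid dehydrogenase. Every mouse carried the genotype Gfplc3/Gfplc3, a GFP-LC3 reporter that marks autophagosomes and is broken down as autophagy runs. AThi libraries came from the 33% of HSCs of old mice (over 24 months) with the lowest GFP signal, and ATlo libraries from the 33% with the highest, with 3 libraries each. Young libraries came from unfractionated HSCs of mice aged 8 to 12 weeks, with 2 libraries. All cells were taken at steady state, and each old biological replicate gave 1 AThi and 1 ATlo sample. Young HSCs were not split by GFP, so in a contrast of an old fraction with young the effects of gate and of age cannot be told apart.

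MHC class I molecules present peptides from inside the cell to CD8 T cells, and pair a polymorphic heavy chain (H2-K1 and H2-D1 here) with the light chain beta-2 microglobulin. The Tap1 and Tap2 transporter carries peptides into the endoplasmic reticulum, Erap1 trims them there, and the chaperones Tapbp (tapasin) and Tapbpl help to load and edit them. MHC class II molecules present peptides from the endosomal route to CD4 T cells; the invariant chain Cd74 guards their groove, H2-DM exchanges its remnant for peptide, and H2-O restrains H2-DM. The transactivators Nlrc5 (class I) and Ciita (class II) act through the RFX complex and its partners on short promoter motifs. Class II genes are best known from B cells, dendritic cells and macrophages, and murine haematopoietic stem and progenitor cells also carry them.

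Promoters of the chains that the results turn on are shown because the regulators of class I and class II genes act on short motifs in this stretch, some of them common to both classes. Sequences are from RefSeq on the build GRCm38.p6, 250 bases before the RefSeq start of the gene, 5′ to 3′ on the strand of the gene. RefSeq held a promoter for 26 of the 40 members. H2-DMb1 and H2-DMb2 encode the beta chains of H2-DM, H2-Eb1 and H2-Aa encode chains of the presenting class II molecules, and H2-K1 and H2-D1 are the classical class I chains. Capitals mark the motifs found on either strand: CCAAT, which reads ATTGG on the opposite strand, an X-box-like motif of AAC and then TGATG with any 3 bases between them, TTTCACTT as the core of an interferon-stimulated response element (ISRE), GGGGATTCC as a kappaB motif, and TGACGTCA as a cyclic AMP response element (CRE). No motif printed here overlapped another.
H2-DMb1: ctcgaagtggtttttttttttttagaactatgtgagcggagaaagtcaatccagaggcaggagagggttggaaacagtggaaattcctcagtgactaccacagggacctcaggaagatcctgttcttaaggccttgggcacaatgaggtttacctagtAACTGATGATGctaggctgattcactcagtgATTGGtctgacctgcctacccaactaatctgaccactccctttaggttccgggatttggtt
H2-DMb2: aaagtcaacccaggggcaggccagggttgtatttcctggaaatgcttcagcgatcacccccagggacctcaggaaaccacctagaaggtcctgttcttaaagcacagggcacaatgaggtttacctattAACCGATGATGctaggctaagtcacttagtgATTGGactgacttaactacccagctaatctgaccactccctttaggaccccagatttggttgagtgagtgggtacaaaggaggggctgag
H2-Eb1: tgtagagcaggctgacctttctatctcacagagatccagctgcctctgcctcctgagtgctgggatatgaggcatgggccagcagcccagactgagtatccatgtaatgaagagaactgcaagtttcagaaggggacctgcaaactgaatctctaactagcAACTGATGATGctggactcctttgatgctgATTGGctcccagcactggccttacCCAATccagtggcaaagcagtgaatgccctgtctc
H2-Aa: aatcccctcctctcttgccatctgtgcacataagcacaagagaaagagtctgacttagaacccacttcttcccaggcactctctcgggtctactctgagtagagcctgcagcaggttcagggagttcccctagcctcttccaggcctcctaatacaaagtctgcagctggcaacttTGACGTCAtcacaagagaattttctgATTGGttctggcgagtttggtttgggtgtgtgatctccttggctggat
H2-K1: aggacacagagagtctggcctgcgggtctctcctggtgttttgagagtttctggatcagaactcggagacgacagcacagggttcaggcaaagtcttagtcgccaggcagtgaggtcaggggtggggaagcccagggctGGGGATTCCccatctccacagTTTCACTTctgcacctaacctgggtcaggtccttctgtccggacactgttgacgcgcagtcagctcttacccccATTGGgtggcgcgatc
H2-D1: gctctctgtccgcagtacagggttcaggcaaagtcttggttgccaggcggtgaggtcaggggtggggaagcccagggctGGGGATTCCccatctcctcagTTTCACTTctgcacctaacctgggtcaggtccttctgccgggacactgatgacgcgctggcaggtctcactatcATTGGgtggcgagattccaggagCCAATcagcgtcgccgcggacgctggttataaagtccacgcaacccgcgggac

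The stretches lie at chr17:34152941-34153190 on the plus strand for H2-DMb1, chr17:34144999-34145248 on the plus strand for H2-DMb2, chr17:34305617-34305866 on the plus strand for H2-Eb1 and chr17:34287824-34288073 on the minus strand for H2-Aa. Those of the classical chains lie at chr17:34000348-34000597 on the minus strand for H2-K1 and chr17:35262844-35263093 on the plus strand for H2-D1. In H2-DMb1 the X-box-like letters ran from base 92 to base 82 before the start and ATTGG from base 61 to base 57. In H2-DMb2 the same motifs stood at bases 121 to 111 and 90 to 86, and in H2-Eb1 at bases 89 to 79 and 59 to 55. The X-box-like letters, which were chosen after these promoters had been read, were in 4 of 8 class II promoters (H2-DMb1, H2-DMb2, H2-Eb1 and H2-Ob), in 0 of 2 classical and 0 of 9 non-classical class I promoters, and in 0.5% of 27025 promoters of the same length. CCAAT was in 22 of 26 member promoters and in 34.5% of all. The ISRE core was in 2 of 2 classical and 7 of 9 non-classical class I promoters, in 0 of 8 class II promoters, and in 1.44% of all. The kappaB letters were in H2-K1, H2-D1, H2-Q6 and H2-Q7 and in 0.218% of all promoters, and the CRE letters were in H2-Aa and in 1.62% of all. Aligned to each other, the promoters of H2-DMb1 and H2-DMb2 were identical at 83.7% of 209 aligned bases, and those of H2-K1 and H2-D1 at 91.6% of 190. Those of H2-Aa and H2-Eb1 were identical at 68.4% of 206. Gap bases, which these shares leave out, were 82, 120 and 88 in the same order. A match of letters is a description of these windows and is not evidence of binding.

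Reads counted on the 19909 listed genes were recovered from the normalized values. They came to 33960216 to 45830216 in AThi libraries, 54512285 to 61341946 in ATlo libraries, and 45590508 (D11) and 44021141 (D12) in young libraries. By these counts every ATlo library was deeper than every AThi library. Ribosomal RNA genes took 27.1% to 36.1% of these reads. All 10 HSC markers were above 0 in every library, and their summed level was 127811 to 151315 normalized counts in AThi, 96336 to 117202 in ATlo, and 130616 and 127883 in young. AThi and ATlo did not overlap, and Procr, Hlf and Mecom were called higher in AThi in the authors' deposited table, beside 3.47% of all genes. In edgeR Procr and Hlf passed (adjusted p 0.033 and 0.038) and Mecom did not (0.097). Against young, the deposited test called Procr and Slamf1 higher in AThi, beside 3.13% of all genes. In ATlo over young it called Slamf1 higher and Hlf lower, beside 2.37% and 1.98%. The libraries tagged 12 in the file headers stood apart from the rest. Ighm, the immunoglobulin mu chain of B cells, had 20937 normalized counts in AThi O12, 7314 in ATlo O12 and 8395 in young D12, and 25.3 to 63.5 in the other 5 libraries. Cd79a, a signalling chain of the B cell receptor, had 915, 496 and 465 normalized counts in these 3 libraries, and 0 to 15.7 in the rest, with 0 in AThi O10, ATlo O11 and young D11. Of 18 B cell markers 9 were measured, and their summed level was 1230, 1328 and 27914 normalized counts in AThi O10, O11 and O12, 959, 1027 and 12139 in ATlo O10, O11 and O12, and 1701 and 13284 in young D11 and D12. Of 11 monocyte and macrophage markers 8 were measured, with sums of 1651 to 2201 in the libraries tagged 12 and 353 to 685 in the others. For the class II genes, log2 fold changes without these libraries are given beside those with all of them in the contrasts where they are described; without them young is the library D11 alone, which is assumed to vary like the other groups.

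Levels were compared between genes per kilobase of exon in the GENCODE M21 annotation of GRCm38, where a normalized count is a read count divided by 1 size factor per library. B2m, the class I light chain, was highest with a mean of 163222 normalized counts per kilobase in AThi, 149520 in ATlo and 148510 in young HSCs. H2-K1 followed with 17044, 15186 and 12873 and H2-D1 with 11843, 10031 and 7843 in AThi, ATlo and young HSCs. Cd74, the class II invariant chain, averaged 3034, 1934 and 1996 per kilobase in AThi, ATlo and young HSCs. The presenting class II chains H2-Aa, H2-Ab1 and H2-Eb1 lay between 845 and 1073 in AThi, 629 and 860 in ATlo, and 398 and 899 in young HSCs. Classical class I chains thus stood above every class II chain in all 8 libraries. The class II transactivator Ciita was at 50.3, 44.0 and 41.8 per kilobase in AThi, ATlo and young HSCs, and the class I transactivator Nlrc5 at 235, 199 and 178.

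**Figure D1:**
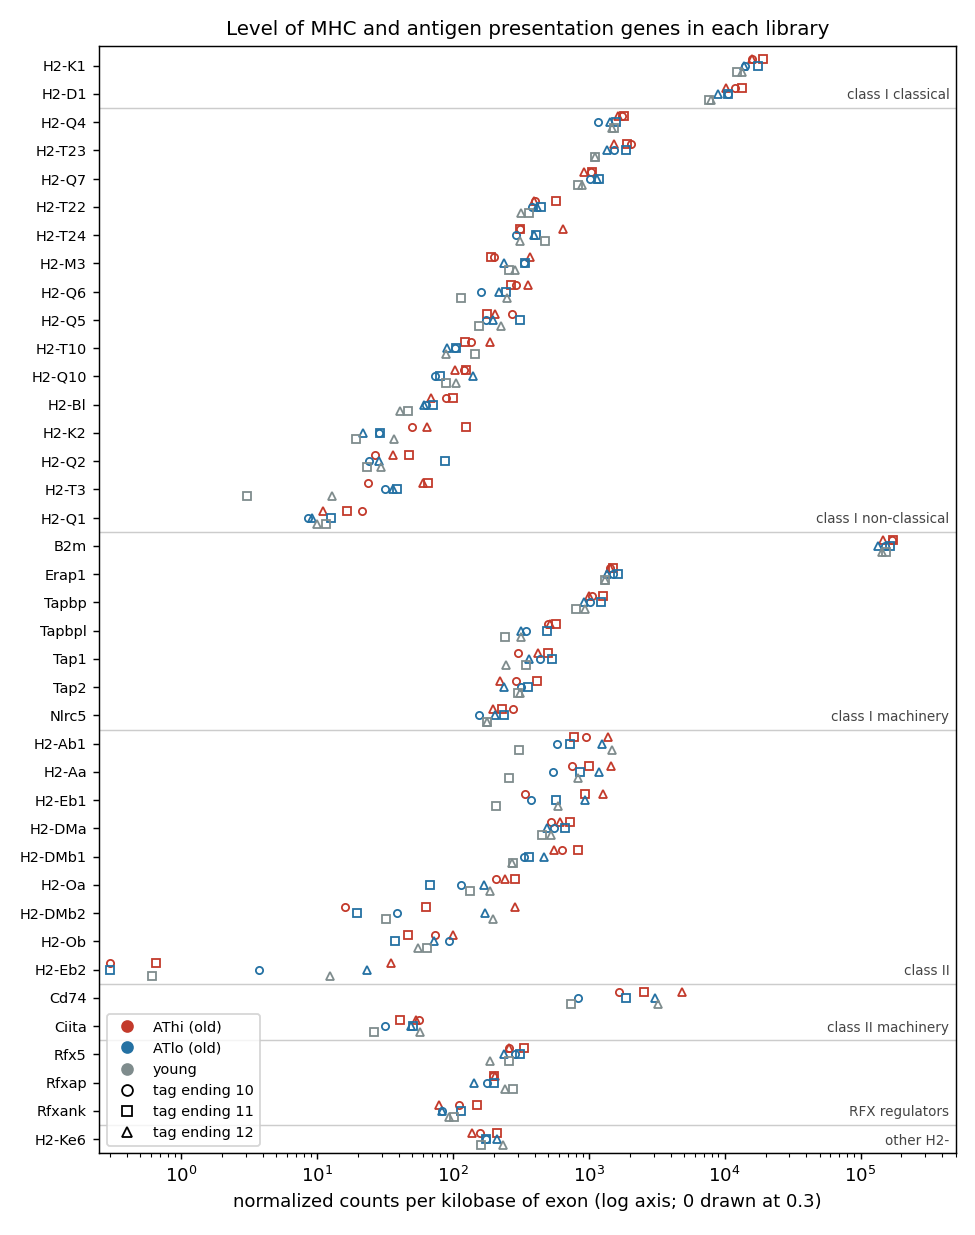
Normalized counts per kilobase of exon (log axis) of the 39 members with a GENCODE exon length, one row per gene and grouped by role, with one open mark per library coloured by group and shaped by the ending of the tag. B2m stands above 1e+05 in every library, the classical chains follow, and several class II genes and Cd74 spread widely within each group.

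The comparison of AThi with ATlo asks how the transcriptome of old HSCs with the lowest GFP signal differs from that of old HSCs with the highest. Among the MHC genes, the single call was H2-DMb1, the beta chain of the class II peptide exchanger H2-DM, which was higher in AThi. H2-DMb1 (ENSMUSG00000079547, GENCODE gene at chr17:34153072-34160230) had 1063, 1396 and 934 normalized counts in AThi O10, O11 and O12, 558, 606 and 788 in ATlo O10, O11 and O12, and 466 and 455 in young D11 and D12. All 3 AThi libraries lay above all 3 ATlo libraries, and both old fractions lay above both young libraries. In the authors' deposited table, a DESeq2 Wald test with Benjamini-Hochberg adjustment over all genes, its log2 fold change of AThi over ATlo was 0.80 (SE 0.23, adjusted p 0.014). The ratio was 0.93, 1.20 and 0.25 on the log2 scale within tags O10, O11 and O12, so AThi was higher in 3 of 3. In bulk RNA, more cells of a kind and more RNA per cell cannot be told apart. By edgeR's quasi-likelihood test on the recovered reads the change was 0.80 with an adjusted p of 0.12, and no member was called. Leaving out AThi O11, ATlo O10 or ATlo O11 also ended the call (adjusted p 0.14, 0.086 and 0.090 in the refitted DESeq2 test). Without the libraries tagged 12 the refitted log2 fold change was 1.08 (SE 0.32, adjusted p 0.020).

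Among all genes with an adjusted p, 3.47% were called higher in AThi than in ATlo, against 1 of the 39 members that had one (H2-M10 had none), and 0 members were called lower, beside 4.43% of all genes. A share of this size is near the background. At an unadjusted p under 0.05 stood 5 members (edgeR also 5) and 19.5% of all genes. The median member was at a log2 fold change of 0.24 with 32 of 39 above 0, beside a median of 0.02 and 52.1% above 0 over all genes. In 7 of 40 members (H2-Q4, H2-Q6, H2-T10, H2-K2, Tapbpl, H2-DMb1 and H2-Oa) every AThi library lay above every ATlo library, as it did in 10.4% of all genes, and in 0 members did every one lie below. All 5 members with an unadjusted p under 0.05 in the authors' deposited table (H2-Q4, H2-K2, Tapbpl, H2-DMb1 and H2-Oa) had values above 0. Markers of other cells were called in this contrast as well: Clec9a and Tcf4 of 8 dendritic cell markers measured of 12, and Klrb1c of 5 T and NK cell markers measured of 11, all higher in AThi in the authors' deposited table. In edgeR none of them passed (adjusted p 0.11 for Clec9a, 0.15 for Tcf4 and 0.051 for Klrb1c). Of the other markers measured, Flt3, Xcr1, Ccr9, Nkg7 and Thy1 were below 0 in edgeR, and Zbtb46, Bst2, Irf8, Cd4 and Trac above 0. The HSC marker sums given above were higher in AThi too. The part of any of these in the values of the members was not tested.

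Members can also share reads. Of the 50-base stretches of H2-DMb1 transcripts 22.7% occur in H2-DMb2 as well, and 25.9% of those of H2-DMb2 occur in another gene. The sources used here do not give how reads that match several genes were counted. H2-DMb2, the other H2-DM beta chain, did not follow H2-DMb1: it had 27.8, 110 and 499 normalized counts in AThi O10, O11 and O12, 67.6, 34.1 and 299 in ATlo O10, O11 and O12, and 56.1 and 342 in young D11 and D12. The libraries tagged 12 were its highest in each group, while for H2-DMb1 AThi O12 was the lowest of its group and ATlo O12 the highest of its group. H2-DMa, the alpha chain of H2-DM, had 1828, 2506 and 2132 normalized counts in AThi, 1916, 2292 and 1710 in ATlo (O10, O11 and O12), and 1558 and 1814 in young (D11 and D12), and the fractions overlapped (log2 fold change 0.13, SE 0.18, adjusted p 0.79 from the authors' deposited table). The change of H2-DMb2 was 0.67 in that table, and the DESeq2 refit without the libraries tagged 12 gave 0.44 for H2-DMb2 and 0.04 for H2-DMa (adjusted p 0.96 and 0.99).

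**Figure D2:**
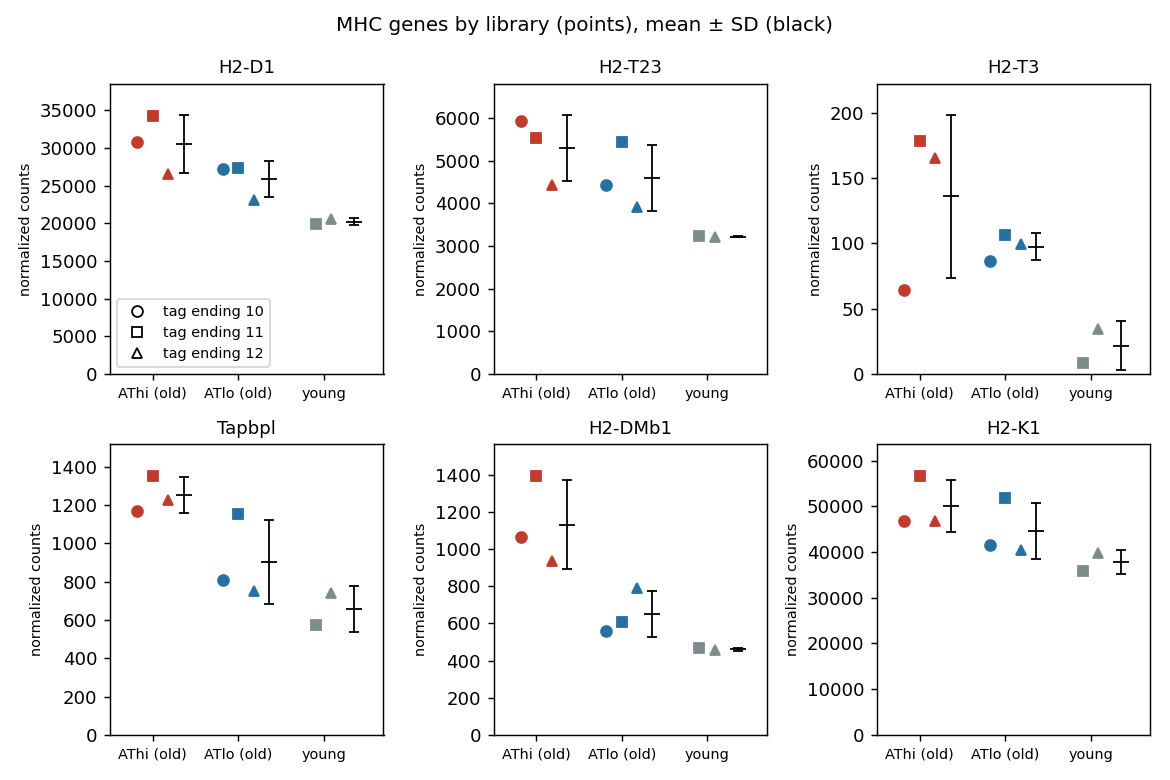
Normalized counts of the 5 members called in any contrast and of H2-K1 in each library, with one panel per gene, AThi, ATlo and young from left to right, marks shaped by tag, and the group mean ± SD in black (n = 3, 3 and 2). For H2-DMb1 the AThi libraries lie at 934 to 1396, the ATlo libraries at 558 to 788 and the young libraries at 455 and 466.

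H2-O, the inhibitor of H2-DM, is formed by H2-Oa and H2-Ob. H2-Oa had 290, 405 and 342 normalized counts in AThi O10, O11 and O12, 160, 95.3 and 239 in ATlo O10, O11 and O12, and 188 and 262 in young D11 and D12. The AThi libraries lay above all others, and the log2 fold change over ATlo was 1.07 (SE 0.40, adjusted p 0.079) from the authors' deposited table, short of the threshold. Without ATlo O12 it was 1.44 and passed (adjusted p 0.017, DESeq2 refit). Without all libraries tagged 12 it was 1.44 as well and did not pass (adjusted p 0.15), nor did it in edgeR (0.22) or in DESeq2 with the replicate block (0.076). Of its 50-base stretches 15.5% occur in BC051537 as well. H2-Ob had 394, 253 and 536 normalized counts in AThi, 500, 200 and 393 in ATlo (O10, O11 and O12), and 345 and 300 in young (D11 and D12), with groups that overlapped (log2 fold change 0.11 for AThi over ATlo, adjusted p 0.93 in the authors' deposited table). The value for H2-Ob was -0.11 without the libraries tagged 12 (adjusted p 0.98, DESeq2 refit).

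The presenting class II chains and the invariant chain varied more between tags than between gates. Cd74 had 2819, 4255 and 8206 normalized counts in AThi O10, O11 and O12, 1388, 3169 and 5186 in ATlo O10, O11 and O12, and 1236 and 5466 in young D11 and D12. In each group the library tagged 12 was the highest, and within each tag AThi was above ATlo, by 1.02, 0.42 and 0.66 on the log2 scale for O10, O11 and O12. The authors' deposited table gave 0.65 for AThi over ATlo (SE 0.78, adjusted p 0.74). With the tag as a replicate block over the 6 old libraries, the DESeq2 fit gave 0.70 (SE 0.14, adjusted p 2.9e-05). The edgeR fit with the same block gave 0.69 (adjusted p 0.075), which did not pass. The B cell sums given above were also higher in AThi O12 than in ATlo O12, by 27914 against 12139 normalized counts. They were higher in AThi in the fractions tagged O10 (1230 in AThi and 959 in ATlo) and O11 (1328 in AThi and 1027 in ATlo) as well. Of the 9 markers in these sums, 3 were at 0 in each O10 fraction and 2 in each O11 fraction, though not always the same markers. Young D11 had a sum of 1701 and the lowest Cd74 of the 8 libraries. The part of B cells in the Cd74 values was not tested. The DESeq2 refit without the libraries tagged 12 gave 0.63 for Cd74 (SE 0.33, adjusted p 0.35).

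H2-Aa, the alpha chain of I-A, had 2846, 3821 and 5562 normalized counts in AThi O10, O11 and O12, 2063, 3248 and 4490 in ATlo O10, O11 and O12, and 974 and 3174 in young D11 and D12. H2-Ab1, its beta chain, had 2450, 1995 and 3569 in AThi, 1491, 1855 and 3218 in ATlo, and 787 and 3829 in young, in the same order of tags. H2-Eb1, the beta chain of I-E, had 654, 1811 and 2465 in AThi, 735, 1107 and 1824 in ATlo, and 402 and 1147 in young. For these 3 genes the groups overlapped, the library tagged 12 was the highest of its group, and young D11 was the lowest of all 8. Their log2 fold changes of AThi over ATlo in the authors' deposited table were 0.32, 0.29 and 0.43 (SE 0.56, 0.65 and 0.67), and none was called. Within tags, H2-Aa and H2-Ab1 were higher in AThi in 3 of 3 and H2-Eb1 in 2 of 3. With the replicate block in DESeq2 the adjusted p was 0.068 for H2-Aa, 0.24 for H2-Ab1 and 0.39 for H2-Eb1. The refitted values without the libraries tagged 12 were 0.33 for H2-Aa, 0.41 for H2-Ab1 and 0.42 for H2-Eb1 (adjusted p 0.65, 0.48 and 0.78).

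H2-Eb2, a class II beta row of low level, was listed at 0 in AThi O10 and ATlo O11. It had 2.20 and 119 normalized counts in AThi O11 and O12, 12.6 and 79.3 in ATlo O10 and O12, and 2.08 and 42.2 in young D11 and D12. The highest library of each group was the one tagged 12. Its log2 fold change of AThi over ATlo was 0.40 in the authors' deposited table, and -2.49 (SE 4.66, no adjusted p) in the DESeq2 refit without those libraries. Over the 9 class II rows together, the summed level was 9552, 12300 and 16157 normalized counts in AThi O10, O11 and O12, 7503, 9437 and 13040 in ATlo O10, O11 and O12, and 4780 and 11366 in young D11 and D12. The order of the tags was the same in every group, and AThi was above ATlo within each tag. Of the 9 rows 9 had a log2 fold change of AThi over ATlo above 0 in the authors' deposited table, with a median of 0.40, and 1 was called. Without the libraries tagged 12 it was 7 of 9 with a median of 0.41, and again 1 was called, at a background of 1.86% of all genes called higher.

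**Figure D3:**
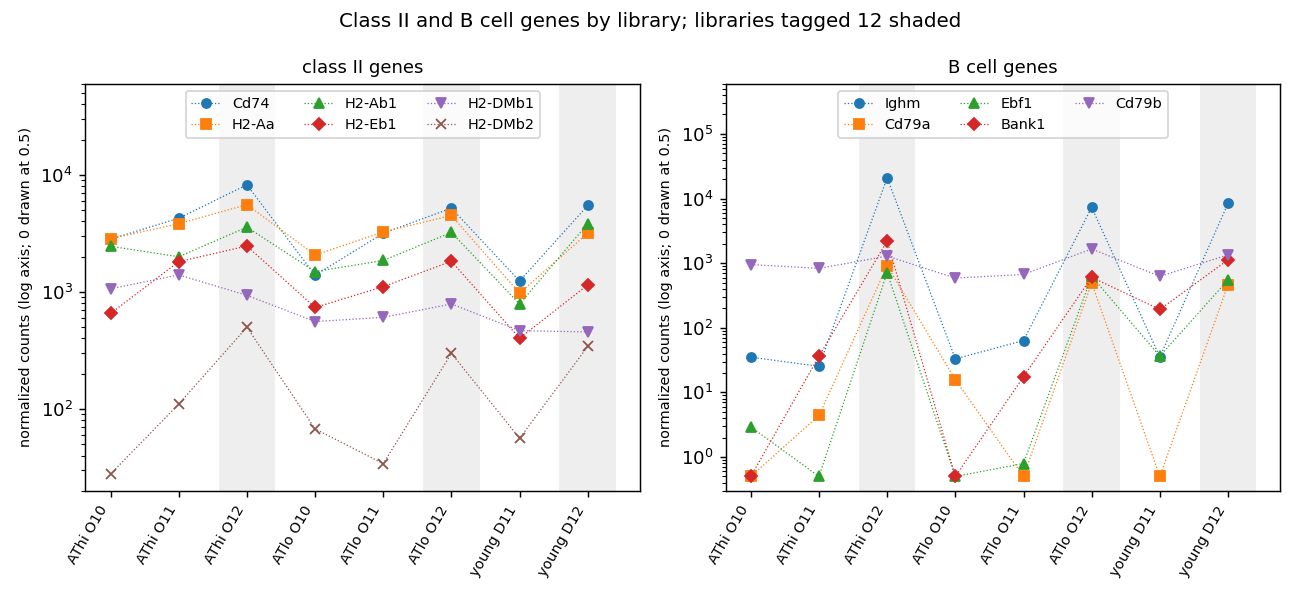
Normalized counts (log axis) of class II genes (left) and B cell genes (right) in each library, AThi, ATlo and young from left to right, with the libraries tagged 12 shaded; dotted lines only join the marks of a gene. Cd74, H2-Aa, H2-Ab1, H2-Eb1 and H2-DMb2 are highest in the shaded library of each group, as are Ighm, Cd79a, Ebf1 and Bank1, while H2-DMb1 is not.

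In the old fractions the classical class I chains were not highest in the libraries tagged 12. H2-D1 (ENSMUSG00000073411, chr17:35262730-35267499) had 30750, 34305 and 26574 normalized counts in AThi O10, O11 and O12, 27193, 27297 and 23121 in ATlo O10, O11 and O12, and 19924 and 20531 in young D11 and D12. Within tags AThi was above ATlo in 3 of 3, by 0.18, 0.33 and 0.20 on the log2 scale. The change over ATlo was 0.24 (SE 0.13, adjusted p 0.28) from the authors' deposited table, and was called in DESeq2 with the replicate block (0.24, SE 0.08, adjusted p 0.039) but not in edgeR with that block (0.22, adjusted p 0.16). H2-K1 (ENSMUSG00000061232, chr17:33996017-34000347) had 46740, 56731 and 46755 normalized counts in AThi O10, O11 and O12, 41588, 51736 and 40522 in ATlo O10, O11 and O12, and 35921 and 39722 in young D11 and D12. It was also higher in AThi in 3 of 3 tags (0.17, 0.13 and 0.21), and its change of 0.17 (SE 0.14, adjusted p 0.56 from the authors' deposited table) was not called with the block either (adjusted p 0.14). With the block, 3 of 40 members were called in DESeq2 (H2-DMb1, H2-D1 and Cd74), beside 5.13% of all genes called higher.

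**Figure D4:**
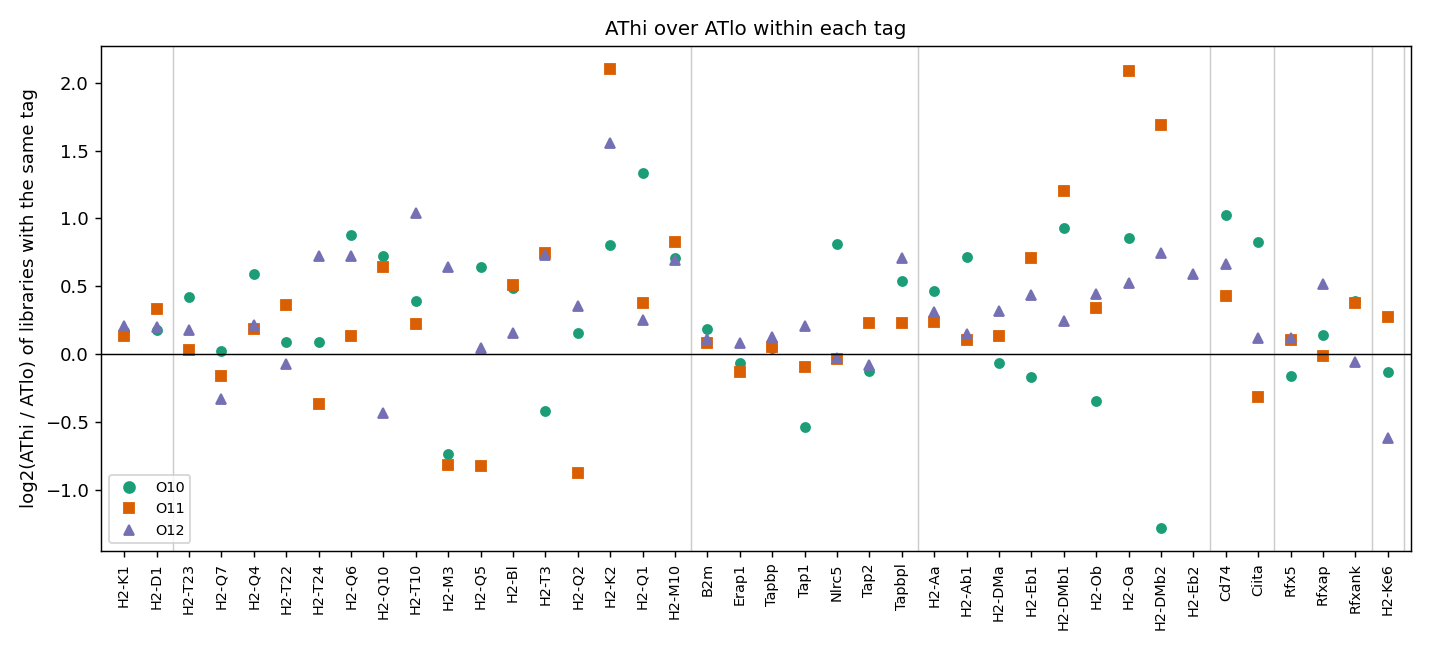
Log2 ratio of the AThi library over the ATlo library with the same tag for each member, grouped by role from the classical class I chains on the left to H2-Ke6 on the right; marks stand for tags O10, O11 and O12, and a mark is left out where a library was at 0. H2-K1, H2-D1, B2m, Cd74, H2-Aa, H2-Ab1 and H2-DMb1 lie above 0 in all 3 tags, and H2-DMb2 spans -1.28 to 1.69.

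B2m (ENSMUSG00000060802, chr2:122147686-122153083) had 147613, 148613 and 124886 normalized counts in AThi O10, O11 and O12, 129692, 140519 and 115552 in ATlo O10, O11 and O12, and 132654 and 122782 in young D11 and D12. The 3 groups overlapped, and its log2 fold changes from the authors' deposited table were 0.13 (AThi over ATlo), 0.14 (AThi over young) and 0.01 (ATlo over young), none of them called. The peptide transporter genes overlapped between the fractions as well. Tap1 had 1648, 2728 and 2298 normalized counts in AThi, 2400, 2915 and 1989 in ATlo (O10, O11 and O12), and 1878 and 1343 in young (D11 and D12). Tap2 had 1107, 1581 and 844 in AThi, 1205, 1351 and 893 in ATlo, and 1133 and 1182 in young. Neither gave a log2 fold change of AThi over ATlo past 0.13 in size in the authors' deposited table (-0.13 for Tap1, 0.03 for Tap2). Erap1, the aminopeptidase, had 10445, 10887 and 10483 in AThi, 10921, 11925 and 9918 in ATlo, and 9528 and 9648 in young.

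The loading chaperones differed in their values. Tapbp had 3806, 4635 and 3660 normalized counts in AThi, 3699, 4481 and 3349 in ATlo (O10, O11 and O12), and 2902 and 3413 in young (D11 and D12). Tapbpl had 1171, 1354 and 1225 in AThi, 807, 1156 and 751 in ATlo, and 571 and 742 in young. Every AThi library lay above every ATlo library for Tapbpl and not for Tapbp, with log2 fold changes of 0.47 (SE 0.23, adjusted p 0.22) and 0.07 (SE 0.16, adjusted p 0.89) from the authors' deposited table. Nlrc5 had 2339, 1963 and 1681 in AThi, 1330, 2013 and 1720 in ATlo, and 1513 and 1512 in young. Ciita had 536, 392 and 511 in AThi, 302, 487 and 470 in ATlo, and 249 and 548 in young. For both transactivators the groups AThi and ATlo overlapped, at 0.24 and 0.19 (adjusted p 0.57 and 0.85) from the authors' deposited table.

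Rfx5, the DNA-binding subunit of the RFX complex, had 1303 to 1830 normalized counts in the old libraries and 1033 and 1432 in the young ones. Rfxank, another subunit, had 315 to 592 in the old libraries and 374 and 405 in the young ones. Rfxap, the third subunit, had 442, 446 and 459 in AThi, 401, 451 and 322 in ATlo (O10, O11 and O12), and 625 and 539 in young (D11 and D12). Rfxap was the member for which both old fractions lay wholly below young, with log2 fold changes of -0.37 (AThi over young, adjusted p 0.61) and -0.57 (ATlo over young, adjusted p 0.24) from the authors' deposited table. These contrasts share the young libraries, and neither was called.

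Against young HSCs, 5 members were higher in AThi and 0 lower in the authors' deposited table: H2-D1, H2-T23, H2-T3, Tapbpl and H2-DMb1. This was 5 of the 39 with an adjusted p, beside 3.13% of all genes called higher and 1.91% called lower. At an unadjusted p under 0.05 were 9 members, all above 0, beside 14.3% of all genes. H2-T23 (Qa-1), which presents leader peptides of other class I chains to NK and T cells, had 5921, 5539 and 4423 normalized counts in AThi O10, O11 and O12, 4419, 5441 and 3909 in ATlo O10, O11 and O12, and 3228 and 3211 in young D11 and D12. All old libraries lay above both young ones. H2-T3, the thymus leukaemia antigen, had 64.4, 178 and 165 in AThi, 86.4, 106 and 99.5 in ATlo, and 8.31 and 34.8 in young, again with no overlap between old and young. For H2-D1, Tapbpl and H2-DMb1, whose counts are given above, the AThi libraries also lay wholly above the young ones.

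In the authors' deposited table the log2 fold change of AThi over young was 0.59 for H2-D1 (SE 0.14, adjusted p 0.0014). It was 0.72 for H2-T23 (SE 0.19, adjusted p 0.0045), 2.66 for H2-T3 (SE 0.74, adjusted p 0.0096), 0.93 for Tapbpl (SE 0.25, adjusted p 0.0082) and 1.30 for H2-DMb1 (SE 0.26, adjusted p 7.6e-05). With edgeR 0 of the 5 were called, at adjusted p of 0.072 for H2-D1, 0.12 for H2-T23, 0.17 for H2-T3, 0.13 for Tapbpl and 0.052 for H2-DMb1, and 8 members had an unadjusted p under 0.05. Without young D11 only H2-DMb1 was called in the refitted DESeq2 test, and without young D12 the count was 8. For H2-T3 the log2 fold change was 1.97 without young D11 (adjusted p 0.21), 4.04 without young D12 and 3.87 without the libraries tagged 12. Leaving out AThi O11 ended the calls of H2-T3 and Tapbpl, leaving out AThi O12 that of H2-T3, and leaving out young D12 that of H2-T23. Without the libraries tagged 12 the class I calls H2-D1, H2-T23 and H2-T3 and that of H2-DMb1 held, and Tapbpl did not pass (1.14, adjusted p 0.067).

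The median member was at 0.35 in AThi over young, with 36 of 39 above 0, beside a median of 0.00 and 50.0% above 0 over all genes in the authors' deposited table. Every AThi library lay above both young libraries in 18 of 40 members and below in 1, Rfxap; 13.7% of all genes lay wholly above. Class I chains, 17 with an adjusted p, had a median of 0.42 with 3 called. The 9 class II rows had a median of 0.62 with 1 called, and 9 of 9 above 0. Summed over both classical chains, the normalized counts were 77491, 91036 and 73329 in AThi O10, O11 and O12, 68781, 79033 and 63643 in ATlo O10, O11 and O12, and 55844 and 60253 in young D11 and D12. These sums did not overlap between old and young, and the libraries tagged 12 were the lowest of both old fractions.

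Class II values against young moved without the libraries tagged 12, and without young D12 alone. With all libraries H2-Aa, H2-Ab1, H2-Eb1 and Cd74 stood at 0.97, 0.21, 1.09 and 0.60 (SE 0.62, 0.73, 0.75 and 0.87) in AThi over young in the authors' deposited table, and none was called. Without the libraries tagged 12 the DESeq2 refit gave 1.77 for H2-Aa (SE 0.32, adjusted p 4.5e-06), 1.50 for H2-Ab1 (SE 0.31, adjusted p 1.1e-04) and 1.52 for Cd74 (SE 0.40, adjusted p 0.0077), and 1.62 for H2-Eb1 (adjusted p 0.059). The members called higher were then 7, beside 2.13% of all genes. Leaving out young D12 alone gave 2.06 for H2-Aa, 1.76 for H2-Ab1 and 2.03 for H2-Eb1 in AThi over young (DESeq2 refit). Young is 1 library, D11, in both fits, and it was the library with the lowest H2-Aa, H2-Ab1, H2-Eb1 and Cd74 of the 8. Markers of other cells moved with this contrast too: Klrb1c, an NK cell receptor gene, had 2354, 2730 and 1284 normalized counts in AThi, 859, 950 and 721 in ATlo (O10, O11 and O12), and 375 and 353 in young (D11 and D12). Of the T and NK markers, Klrb1c was the 1 called in AThi over young in the authors' deposited table, beside 3.13% of all genes called higher. It was also the 1 called in ATlo over young, higher there too, beside 2.37%. In edgeR Klrb1c passed for AThi over young (adjusted p 0.0076) and not for ATlo over young (0.16). The sums of the list were 2455 to 3434 in AThi, 1652 to 2033 in ATlo, and 1364 and 1657 in young. Klrb1c itself made up 2354 of the 3106 normalized counts of this sum in AThi O10, and 375 of 1364 in young D11. For the other markers of the list, edgeR gave -1.48 for Cd4, -0.31 for Nkg7, 0.0007 for Thy1 and 0.73 for Trac in AThi over young, and none passed. Of the dendritic cell markers, Clec9a was called higher and Flt3 lower in AThi over young, beside 3.13% and 1.91% of all genes. Flt3 was called lower in ATlo over young as well, beside 1.98%. In edgeR Clec9a passed for AThi over young (adjusted p 0.025), and Flt3 passed in neither contrast (0.069 and 0.18). The dendritic cell sums were 13705 to 16720 in AThi, 10726 to 11857 in ATlo, and 11182 and 13699 in young. What such cells add to the class II values was not tested.

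In ATlo against young 0 members were called, beside 2.37% of all genes called higher and 1.98% called lower in the authors' deposited table. At an unadjusted p under 0.05 were 6 members and 15.0% of all genes, and edgeR also gave 6 at that level and called 0. The 6 in the authors' deposited table were H2-D1, H2-T23, H2-Q7, H2-T3 and Tap1 above 0 and Rfxap below it. The genes called in AThi over young had log2 fold changes of ATlo over young of 0.36 for H2-D1 (adjusted p 0.15), 0.51 for H2-T23 (0.095), 2.18 for H2-T3 (0.064), 0.46 for Tapbpl (0.39) and 0.50 for H2-DMb1 (0.37) in the authors' deposited table. All 5 lay above young in each of the 3 ATlo libraries. For H2-T3 the value of ATlo over young was 1.48 without young D11 and 3.55 without young D12, where it passed (adjusted p 0.0086, DESeq2 refit). The difference between the old fractions is the AThi against ATlo contrast of the same fit, which called H2-DMb1 among these 5. With the replicate block DESeq2 called H2-D1 as well, and edgeR and limma called none of the 5. The median member was at 0.19 with 26 of 39 above 0, beside 0.01 and 50.8% over all genes. Every ATlo library lay above both young libraries in 12 of 40 members and below in 1 (Rfxap), beside 15.8% of all genes wholly above.

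Here too the class II values moved without the libraries tagged 12, and without young D12 alone (1.75 for H2-Aa and 1.47 for H2-Ab1, DESeq2 refit). H2-Ab1 was at -0.08 in ATlo over young (SE 0.73, adjusted p 0.98 from the authors' deposited table), and at 1.09 (SE 0.31, adjusted p 0.021, DESeq2 refit) without the libraries tagged 12. H2-Aa was at 0.66 (SE 0.62, adjusted p 0.73) from the authors' deposited table and at 1.45 (SE 0.32, adjusted p 6.7e-04) without them. These were the 2 members called in that fit, beside 1.76% of all genes called higher. Cd74 was at -0.05 with all libraries in the authors' deposited table and at 0.88 (adjusted p 0.33) without those tagged 12.

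**Figure D5:**
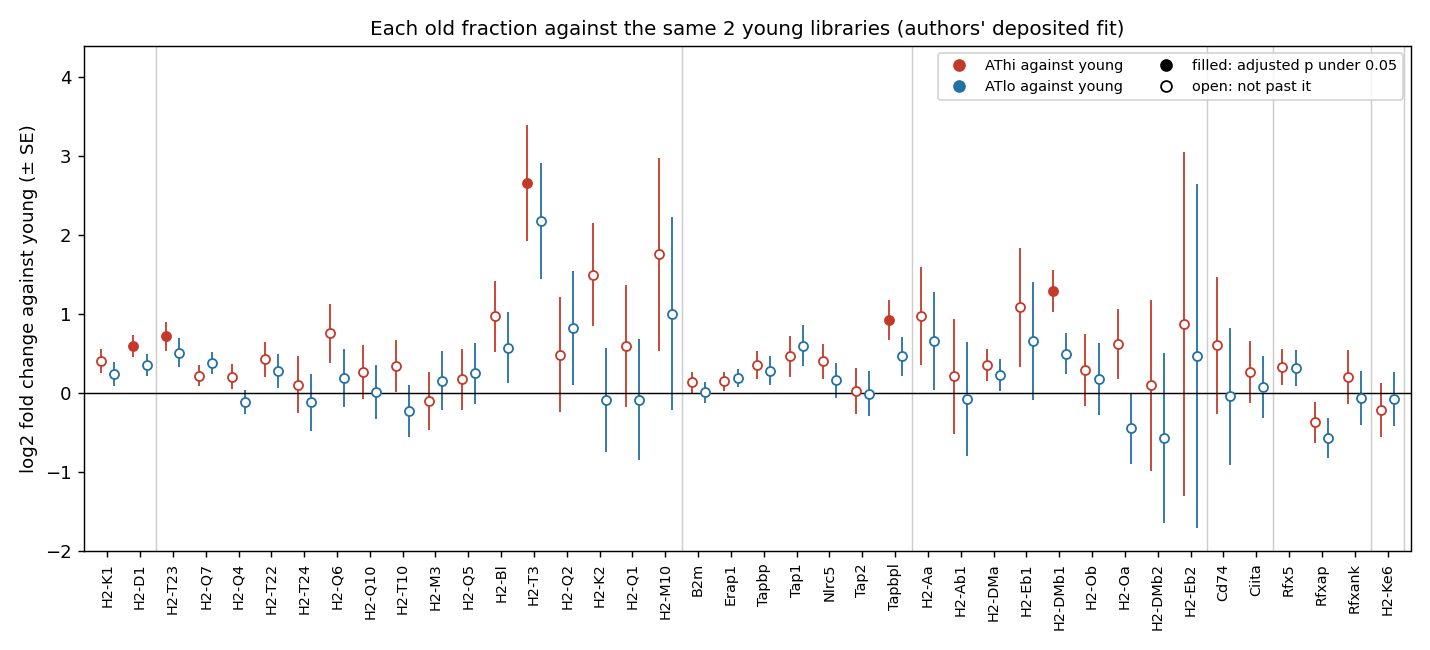
Log2 fold change (± SE) of each member in AThi over young and in ATlo over young, from the authors' deposited table, grouped by role; filled marks have an adjusted p under 0.05. The 5 filled marks are all AThi over young (H2-D1, H2-T23, H2-T3, Tapbpl and H2-DMb1), and the error bars of H2-Ab1, H2-Eb1 and Cd74 (SE 0.73, 0.75 and 0.87) are wider than those of H2-D1 (SE 0.14); both contrasts share the 2 young libraries.

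The remaining class I rows were not called in any contrast. They were 13 rows with an adjusted p in each contrast, from H2-Q7 (3554 to 5052 normalized counts over the 8 libraries) and H2-Q4 (3037 to 4680) down to H2-Q1 (24.4 to 61.5), and H2-M10 (4.22 to 25.3), which had none. H2-K2, annotated as a transcribed pseudogene, had 84.9, 215 and 110 normalized counts in AThi O10, O11 and O12, 48.7, 50.0 and 37.3 in ATlo O10, O11 and O12, and 33.2 and 63.4 in young D11 and D12. All its AThi libraries lay above all others, at a log2 fold change of 1.59 over ATlo (SE 0.58, adjusted p 0.068 from the authors' deposited table), short of the threshold. H2-Q7 (Qa-2) was the most abundant of the 4 class I rows below 0 in AThi over ATlo, at -0.16 for AThi over ATlo and 0.38 for ATlo over young (adjusted p 0.54 and 0.096) from the authors' deposited table. Several of these rows hold long stretches in common with other genes, at 53.5% of the 50-base stretches for H2-T22, 50.4% for H2-T10 and 26.5% to 36.4% for H2-Q4, H2-Q5, H2-Q6 and H2-Q7, so their values are uncertain. The share was 12.8% for H2-D1, 9.63% for H2-K1, 14.5% for H2-T23, 0.926% for H2-T3, 3.69% for Tapbpl, and 0 for B2m, Cd74 and H2-Ab1.

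Other genes of the route to presentation came from lists drawn up with earlier results in view. Of 26 genes of peptide supply and loading, 25 had an adjusted p for AThi against ATlo, with 1 called higher and 2 lower in the authors' deposited table, beside 3.47% and 4.43% of all genes. Snap23, a membrane fusion protein, was higher (10254, 9317 and 11698 normalized counts in AThi, 6863, 6621 and 7858 in ATlo; log2 fold change 0.55, adjusted p 0.0012 from the authors' deposited table). Sec61b, a subunit of the translocon of the endoplasmic reticulum, was lower (1986, 2433 and 2181 in AThi, 3181, 3638 and 3610 in ATlo; -0.66, adjusted p 0.0026 from the authors' deposited table). Pdia3, the disulphide isomerase of the class I loading complex, was lower as well (12720, 12910 and 14426 in AThi, 14834, 19499 and 20466 in ATlo; -0.45, adjusted p 0.028 from the authors' deposited table). In ATlo over young, Psmb9 (an immunoproteasome subunit), Calr (calreticulin) and Ctsd (an endosomal protease) were called higher at 0.49, 0.59 and 0.44 in the authors' deposited table, beside 2.37% of all genes. In AThi over young, Ctsd was the 1 call of this list, at 0.42, beside 3.13% of all genes called higher. The median log2 fold change of the list was -0.15 for AThi over ATlo, 0.04 for AThi over young and 0.17 for ATlo over young. None of these calls passed in edgeR, nor did those of the regulators that follow.

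Of 15 measured regulators of MHC genes and interferon gamma signalling, 2 were higher and 1 was lower in AThi than in ATlo, beside 3.47% and 4.43% of all genes. Ifngr1, the ligand-binding chain of the interferon gamma receptor, had 3443, 3302 and 3264 normalized counts in AThi, 2404, 2257 and 2155 in ATlo (O10, O11 and O12), and 3285 and 2690 in young (D11 and D12), with a log2 fold change of 0.55 over ATlo (adjusted p 8.7e-04 from the authors' deposited table). Crebbp, a histone acetyltransferase, was higher by 0.41 (adjusted p 0.027 from the authors' deposited table). Ezh2, the methyltransferase of Polycomb complex PRC2, had 1707, 1898 and 2683 in AThi, 2876, 3136 and 3255 in ATlo, and 3744 and 3807 in young, and was lower in AThi, with log2 fold changes of -0.56 over ATlo and -0.85 over young (adjusted p 0.031 and 0.0014 from the authors' deposited table). The 3 groups did not overlap for Ezh2. Irf1, a transcription factor induced by interferon gamma, was at 0.20 in AThi over ATlo (adjusted p 0.80 from the authors' deposited table). The authors' deposited table of 726 upstream regulators for AThi against ATlo gave IFNG a score of 1.52 (p of overlap 0.000224), IFNB1 2.76 (0.0421, marked activated) and interferon alpha -2.43 (6.05e-05, marked inhibited). It did not list CIITA, NLRC5, RFX5, RFXAP, RFXANK or IRF1.

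Of 8 measured MHC-like molecules and their regulators, 3 were higher in AThi than in ATlo and 0 lower, beside 3.47% and 4.43% of all genes. Procr, the endothelial protein C receptor and a marker of HSCs, had 4646, 4070 and 4834 normalized counts in AThi, 2909, 2120 and 2000 in ATlo (O10, O11 and O12), and 2321 and 2844 in young (D11 and D12), a log2 fold change of 0.95 over ATlo and 0.81 over young (adjusted p 1.0e-05 and 0.0025 from the authors' deposited table). Mr1, which presents microbial vitamin B metabolites, had 2447, 1906 and 1719 in AThi, 1509, 1046 and 1037 in ATlo, and 1803 and 1693 in young (0.76 over ATlo, adjusted p 0.0079 from the authors' deposited table). Fcgrt, the neonatal Fc receptor, had 351, 448 and 337 in AThi, 172, 212 and 238 in ATlo, and 312 and 314 in young (0.87 over ATlo, adjusted p 0.030 from the authors' deposited table). For all 3 the AThi libraries lay above the ATlo libraries without overlap. In edgeR Procr passed for AThi over ATlo (adjusted p 0.033) and not for AThi over young (0.10), and Mr1 and Fcgrt did not pass. Of 8 measured ligands of T and NK cells, 0 were called in any of the 3 contrasts by the deposited test or by edgeR, and 1 had an unadjusted p under 0.05 in each contrast of the authors' deposited table.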

How the data were processed

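RNA of about 10000 HSCs per sample was collected over 2 sort days, per the labels' protocols; which library belongs to which day is not given. Per the submitters' processing notes, reads were handled with STAR, featureCounts and DESeq2 on GRCm38; the sources used here give no versions, annotation, strand setting or treatment of multi-mapping reads. The authors deposited, for 3 contrasts and 19909 genes, log2 fold changes, standard errors, Wald statistics (a score), p-values and adjusted p-values, and a signal averaged over libraries; no p-value was given for 73 genes. The same deposited tables hold a normalized signal per library, called normalized counts here. The deposited upstream regulator table holds a score, a p-value of overlap and a log2 ratio. The tags in the headers (O10, O11, O12, D11, D12) differ from the labels' replicate numbers, so columns were assigned to groups alone.

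Each deposited normalized value is a whole number of reads over a library factor: undoing the factor returned whole numbers, to within 0.01 read, for 100% of values. The recovered reads were refitted with DESeq2 1.42.0, which returned the deposited calls (1414 of 1414 for AThi against ATlo), with edgeR 4.0.16 (TMM, quasi-likelihood) and with limma 3.58.1 on log2(value + 1), in R 4.3.3; tables used Python 3.11.15, pandas 2.3.3, numpy 2.4.6 and matplotlib 3.10.9. On data simulated from these reads each tool returned the sizes of the planted changes, and DESeq2 made more false calls than edgeR and more than its adjusted p allows. edgeR called 280 genes for AThi against ATlo, 240 for AThi against young and 130 for ATlo against young, where the deposited test called 1414, 961 and 811. The main test is the deposited DESeq2 Wald test over all 8 libraries, called at an adjusted p under 0.05. DESeq2 gave no adjusted p for H2-M10. Exon lengths and shared 50-base stretches came from GENCODE M21, promoters from RefSeq (GRCm38.p6). Reads carry no molecular identifiers, so depth speaks to counting error alone.

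Members and lists were chosen with earlier results of these data known. Values in every library are given for H2-K1, H2-D1, B2m, each class II and machinery gene with a base mean of 10 or more, and every other member called in any contrast; Rfx5 and Rfxank are given as ranges, and H2-K2 was added after its values were seen. Per the labels each old biological replicate gave a paired AThi and ATlo sample. Libraries with the same tag deviated together (r of 0.209, 0.164 and 0.373 for O10, O11 and O12 over 13611 genes with a base mean of at least 100; -0.232 to 0.0301 for unlike tags), so the tag was used as the replicate block. Alternatives were other tools, scalings, filters and pseudocounts, each library left out, and the libraries tagged 12 left out.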

Additional observations from a re-analysis of the deposited data

How the results depend on the processing

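For AThi against ATlo the deposited test called 1 member; edgeR called 0, limma with a pseudocount of 1 or 5 called 0, DESeq2 with the replicate block called 3, edgeR with the replicate block called 0, and leaving out each library gave 0 to 2 (0 without AThi O11 or ATlo O10, Tapbpl in place of H2-DMb1 without ATlo O11, and 2 without ATlo O12). For AThi against young it called 5; edgeR called 0, limma called 2 with either pseudocount, and leaving out each library gave 1 to 8 (3 without AThi O11, 1 without young D11 and 8 without young D12). For ATlo against young it called 0; leaving out each library gave 0 to 3 (H2-T3 without AThi O10, H2-T23 without ATlo O12, and 3 without young D12), and leaving out those tagged 12 gave 2. The log2 fold change of H2-Ab1, ATlo against young, was -0.08 and turned to 1.09 without the libraries tagged 12; it lay between -0.81 and 1.47 with each library left out. The causes were not tested. TMM factors in DESeq2, leaving out ribosomal RNA and mitochondrial genes, and the filter at a mean of 10 changed no call among the members. In DESeq2 the replicate block changed no call among the members but those of Cd74 and H2-D1.

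Over all genes, edgeR called 280 (60 higher, 220 lower), limma 376 and 409 and DESeq2 without the libraries tagged 12 795 for AThi against ATlo, where the deposited test called 1414 (621 higher, 793 lower); each library left out gave 932 (without AThi O10 or ATlo O11) to 1429. For AThi against young edgeR called 240 (168 higher), limma 292 and 308 and DESeq2 without the libraries tagged 12 564, against 961 deposited (596 higher), and each library left out gave 583 (without young D12) to 1093. For ATlo against young these counts were 130 (93 higher), 190, 201 and 485, against 811 deposited (442 higher), and 356 (without young D11) to 889 with each library left out. With 2 young libraries, leaving out 1 assumes that the other varies like the old groups. Sign changed in 97 of 1829 alternative values that passed no threshold. Depth limits the lowest members: H2-Eb2 was listed at 0 in AThi O10 and ATlo O11, and H2-M10 had 4.22 to 25.3 normalized counts and no adjusted p.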
